A study of Mus musculus with 8 samples.

Results

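Aquaporins are the water channels of cell membranes, and the RNA of 5 of them, Aqp1, Aqp4, Aqp7, Aqp8 and Aqp11, was followed in heart mitochondria of mice without TEFM. TEFM is the elongation factor of transcription in mitochondria. The 5 genes were picked by name from the 12 aquaporin family genes among 49584 counted features, with the knockout against control values of this series already known. Their differences between the groups are therefore described here without a test. Total RNA of crude heart mitochondria was sequenced from 4 knockout animals, titled L/L, cre and of genotype Tefm -/-, and from 4 control animals, titled L/L and of genotype Tefm +/+. Per the labels, 1 exon of Tefm is flanked by loxP sites, and cre is driven by the muscle creatine kinase promoter, so cells other than heart and skeletal muscle cells would keep the gene. The sources used here give no strain, age or sex.

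Aquaporin proteins sit in the membrane as tetramers in which each subunit holds a pore of its own. Classical members such as AQP1 and AQP4 pass water, while aquaglyceroporins such as AQP7 also pass glycerol. AQP8 passes water, ammonia and hydrogen peroxide. AQP11 belongs to a distant branch of the family whose proteins reside largely in the endoplasmic reticulum. In the heart AQP1 is known from capillary endothelium, AQP4 from the membrane of mouse cardiomyocytes and AQP7 as a route for glycerol, which the heart can use as fuel.

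The mark of the family is a pair of short boxes that meet in the middle of the pore, canonically of asparagine, proline and alanine. The coding stretches around them are shown to place the members beside each other. Aqp1 and Aqp8 carry canonical boxes, so the boxes do not set these genes apart. Both boxes of Aqp7 and the first box of Aqp11 depart from the canonical one, while the second box of Aqp11 is canonical. Each stretch has 27 bases of the GENCODE M21 transcript on GRCm38, written 5′ to 3′, with the 9 bases of the box in capitals. Aqp4 is described by its values only.
Aqp1, first box: gctcacctcAACCCTGCGgtcacactg
Aqp1, second box: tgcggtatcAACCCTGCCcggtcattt
Aqp7, first box: gcccacatgAATGCCGCAgtgactttc
Aqp7, second box: tatgcaatcAACCCATCCcgtgacctg
Aqp8, first box: ggacacttcAACCCTGCTgtgtcgctg
Aqp8, second box: gcctgcatgAACCCTGCTcgtgccttt
Aqp11, first box: acagctagcAACCCGTGCggcgtgatg
Aqp11, second box: gcattgtttAACCCAGCGctggcactt
The boxes begin at codons 76 and 192 of Aqp1, 79 and 211 of Aqp7, 91 and 209 of Aqp8, and 99 and 216 of Aqp11.

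The libraries held 21108165 to 25393933 counts in knockouts and 26268804 to 27403415 in controls. RNA of mitochondrial DNA took 38.7% to 44.2% of the counts in knockout replicates 2 to 4 and 59.3% in knockout replicate 1, against 72.3% to 74.0% in controls. Knockout replicate 1 thus lay apart from the other knockouts, and values without it are given beside each member. Aquaporin RNA is nuclear and reaches such a preparation with co-purified material, so a shift in co-purified material and a shift in heart RNA cannot be told apart. Counts were scaled by TMM factors, which follow the bulk of nuclear genes, and are given as scaled CPM, that is counts per 1000000. Tefm itself held 166 to 245 counts in knockouts and 106 to 144 in controls (log2 fold change 0.14, SE 0.11, edgeR adjusted p = 0.324), so its whole-gene count did not show the deletion.

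Aqp1 was by far the most abundant member, and the other 4 were minor transcripts. Per length, as CPM per kilobase (kb) of merged exons, Aqp1 stood at 74.1 ± 6.56 in knockouts and 73.1 ± 10.2 in controls (SD, n = 4 each). That level was above 99% of the 13116 protein-coding genes tested in knockouts and above 99.1% in controls. Aqp7 came next per length, with 2.96 ± 0.647 CPM per kb in knockouts and 4.08 ± 0.289 in controls. Aqp8 had 1.57 ± 1.25 CPM per kb in knockouts and 0.316 ± 0.129 in controls. Aqp4 had 0.0156 ± 0.00865 CPM per kb in knockouts and 0.889 ± 0.189 in controls. Aqp11 had 0.134 ± 0.0428 CPM per kb in knockouts and 0.247 ± 0.0556 in controls.

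The order per length was Aqp1, Aqp7, Aqp8, Aqp11 and Aqp4 in knockouts, and Aqp1, Aqp7, Aqp4, Aqp8 and Aqp11 in controls. Aqp4 thus stood last in knockouts and just behind Aqp7 in controls. In knockouts the libraries of Aqp8, at 0.194 to 3.21 CPM per kb, overlapped with those of Aqp7, at 2.40 to 3.65, and with those of Aqp11, at 0.101 to 0.195. In controls the ranges per kb of Aqp8, 0.199 to 0.5, and Aqp11, 0.200 to 0.312, overlapped as well. The merged exons of Aqp11 include long retained-intron transcripts, and over its longest coding transcript its level was 0.336 CPM per kb in knockouts and 0.623 in controls. On that length Aqp11 stood above Aqp8 in controls (0.336 CPM per kb). The Aqp4 identifier of the files carries an older version than the annotation used for lengths, so its length is approximate.

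**Figure D1:**
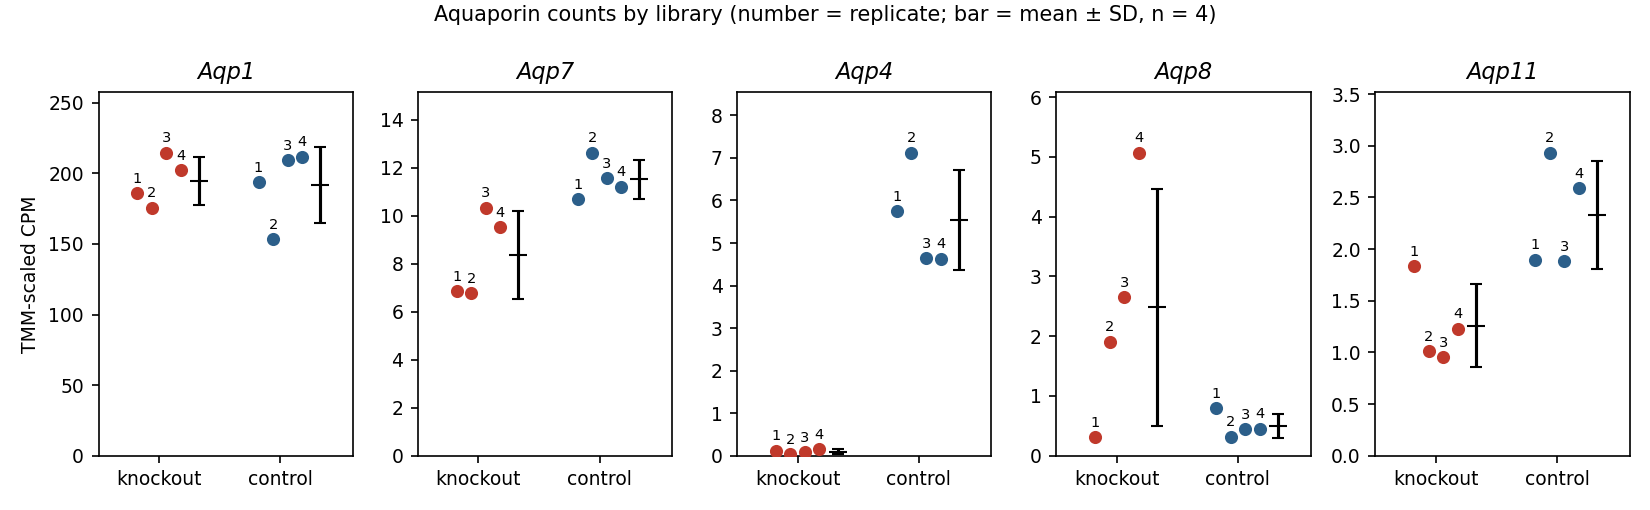
TMM-scaled CPM of each aquaporin in every library, knockout left of control, with a vertical axis of its own for each gene; points are libraries with their replicate number, and bars give the mean ± SD (n = 4). The 4 knockout points of Aqp4 lie at 0.0289 to 0.157 CPM, all below the controls, while for Aqp8 knockout replicate 1, at 0.306 CPM, lies just below the lowest control, at 0.314 CPM.

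Aqp4 was almost lost from the knockout libraries. The gene (ENSMUSG00000024411.9; chromosome 18, 15389496 to 15410982 in GRCm38, minus strand) encodes the water channel of the cardiomyocyte membrane, better known from the endfeet of astrocytes. It held 3, 1, 3 and 5 counts in knockout replicates 1 to 4 and 109, 136, 84 and 93 counts in control replicates 1 to 4. As scaled CPM these were 0.115, 0.0289, 0.0866 and 0.157 in knockouts, against 5.74, 7.13, 4.65 and 4.64 in controls. All 4 knockouts lay far below all 4 controls, and knockout replicate 1 was as low as the others. The fitted log2 fold change was -5.80 (SE 0.30), a level 55.7-fold lower in knockouts, and 6 of 17891 genes tested had a lower value. Pooled over each group, the ratio of scaled counts of knockouts to controls was 0.017, with an exact 95% interval of 0.00874 to 0.0301 that covers counting error alone.

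Leaving out any 1 library gave -6.14 to -5.48 for Aqp4, and -5.88 without knockout replicate 1. The authors' deposited table gives -5.16 with a standard error of 0.352, while DESeq2 1.42.0, run here on the raw counts, gave -5.875. The settings of the deposited fit are not given, so its value may be on another measure. An antisense gene overlaps Aqp4 in GENCODE M21 and is not analysed here. Where counting ignores strand, its reads cannot be told apart from those of Aqp4. In bulk RNA such as this, fewer cells of a type and less RNA per cell cannot be told apart.

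Aqp4 RNA was also lower when set against other heart muscle RNA. Per 1000000 summed counts of 11 cardiomyocyte markers, knockout replicates 1 to 4 held 2.18, 0.717, 1.92 and 3.33 counts of Aqp4. Control replicates 1 to 4 held 84.2, 106, 68.1 and 65.4. The groups did not overlap on this scale, which no scaling between libraries moves. The markers themselves fell in 9 of 11 members and rose in 1, where 23.9% of all genes tested fell and 26.1% rose. Their summed level was 40371 to 52730 CPM in knockouts and 67067 to 70883 CPM in controls.

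Aqp4 is also a channel of fast skeletal muscle fibres and of astrocytes, and markers of both were followed. The 9 fast skeletal muscle markers summed to 0.724 to 1.10 CPM in knockouts and 3.87 to 4.79 CPM in controls. The fibre-type myosin genes were at or near 0: Myh4 held no count, Myh1 held 4 counts in knockouts and 3 in controls, and Myh2 held 3 and 3. Other members were lower together with Aqp4: Tnni2, the fast troponin I gene, held 1 count in knockouts and 34 in controls, and Actn3, of a fast-fibre actinin, held 7 and 19. Tnnt3 held 17 counts in knockouts and 12 in controls, and Mylpf held 18 and 17. Scaled, the mean of Tnnt3 was 0.13 CPM in knockouts and 0.16 in controls, and that of Mylpf 0.14 and 0.22. Of that list 1 gene had enough counts to test, Mybpc2, a fast-type myosin-binding protein, and it fell (log2 fold change -2.62, SE 0.25, edgeR adjusted p = 1.14e-06). Without the filter on low counts 3 members of the list fell. The 5 astrocyte markers summed to 4.44 to 8.31 CPM in knockouts and 2.49 to 3.46 CPM in controls. Gfap, the defining one, held 5 counts in each group, a mean of 0.041 CPM in knockouts and 0.064 in controls. Of 4 astrocyte markers tested, the glutamate transporter genes Slc1a3 (1.86, SE 0.23, adjusted p = 1.45e-05) and Slc1a2 (2.40, SE 0.34, adjusted p = 5.01e-05) rose. Aldh1l1, a folate enzyme, fell (-1.55, SE 0.36, adjusted p = 0.00255). The part of these cells in the Aqp4 difference was not tested.

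Aqp7 was modestly lower in knockouts. The gene (ENSMUSG00000028427.13; chromosome 4, 41033074 to 41048139, minus strand) encodes the glycerol channel of fat cells and of the heart. It had 6.84, 6.77, 10.3 and 9.52 CPM in knockout replicates 1 to 4 and 10.7, 12.6, 11.6 and 11.2 CPM in control replicates 1 to 4. Knockout replicate 3, the highest knockout, lay just under control replicate 1, the lowest control, and the groups did not overlap. The log2 fold change was -0.46 (SE 0.14), and -0.38 without knockout replicate 1. Scaled by library totals alone it turned to 0.56. The median of all genes tested was -0.01 with TMM and 0.97 with library totals, so Aqp7 stayed below the median gene on both. With library totals 96.7% of all calls in knockouts were higher, against 52.2% with TMM.

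Per 100 counts of Aqp1, a ratio that no scaling moves, Aqp7 held 3.68, 3.85, 4.81 and 4.71 counts in knockouts and 5.53, 8.23, 5.53 and 5.30 in controls. These values did not overlap either. Per 100 summed counts of the endothelial markers, Aqp7 held 1.31, 1.38, 2.03 and 1.90 counts in knockouts and 2.06, 2.44, 2.11 and 2.16 in controls, again without overlap. Defining markers of fat cells were nearly absent: Adipoq, the adiponectin gene, held 3 counts in knockouts and 1 in controls, and Lep held 0 and 1. Of the 7 adipocyte markers Plin4, which heart muscle also expresses, was the 1 with enough counts to test, and it did not pass (-0.12, SE 0.15, adjusted p = 0.521). The summed level of the list was 132 to 251 CPM in knockouts and 183 to 212 CPM in controls. Set against 100 summed counts of this list, Aqp7 held 2.72, 5.12, 5.55 and 5.69 counts in knockout replicates 1 to 4. Control replicates 1 to 4 held 5.31, 6.91, 5.45 and 5.49, so the groups overlapped on this scale.

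Aqp11 was lower in knockouts as well, at low counts. The gene (ENSMUSG00000042797.9; chromosome 7, 97724006 to 97738289, minus strand) held 48, 35, 33 and 39 counts in knockout replicates 1 to 4 and 36, 56, 34 and 52 in control replicates 1 to 4. Scaled, these were 1.84, 1.013, 0.952 and 1.23 CPM in knockouts, against 1.90, 2.93, 1.88 and 2.59 CPM in controls. Knockout replicate 1 lay just under the lowest control, and the other knockouts well below. The log2 fold change was -0.91 (SE 0.24), and -1.14 without knockout replicate 1. Scaled by library totals alone the value was 0.038, which is again below the median gene. Per 100 counts of Aqp1 the groups overlapped, with 0.443 to 0.987 counts of Aqp11 in knockouts and 0.899 to 1.91 in controls.

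Aqp8 was the 1 member that was higher in knockouts, and only in 3 of the 4 animals. The gene (ENSMUSG00000030762.11; chromosome 7, 123462291 to 123468004, plus strand) encodes the channel for water, ammonia and peroxide that has been described in liver mitochondria of rats. It held 8, 66, 92 and 161 counts in knockout replicates 1 to 4, against 15, 6, 8 and 9 counts in control replicates 1 to 4. As scaled CPM these were 0.306, 1.91, 2.65 and 5.07 in knockouts and 0.790, 0.314, 0.443 and 0.449 in controls. Replicate 1, the knockout library with the largest mtDNA share, was lower than every control, and knockout replicates 2 to 4 were above all controls. Per 100 counts of Aqp1, Aqp8 held 0.165, 1.09, 1.24 and 2.51 counts in knockouts and 0.408, 0.205, 0.212 and 0.212 in controls, and knockout replicate 1 was again the lowest library. Whether the mtDNA share and Aqp8 are tied was not tested.

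The log2 fold change of Aqp8 was 2.33 (SE 0.62), a 5.01-fold higher level in knockouts, with 3.38 when scaled by library totals alone, 2.66 without knockout replicate 1 and 1.73 without knockout replicate 4. The spread between knockouts was wide: the SD of log2 CPM was 1.6 in knockouts and 0.476 in controls. For comparison, that of Aqp1 was 0.128 in knockouts and 0.215 in controls. The authors' deposited table gives 1.603 with a standard error of 0.538 for Aqp8, while DESeq2 1.42.0, run here on the raw counts, gave 2.315. The settings of the deposited fit are not given, so its value may be on another measure. The 5 hepatocyte markers, followed because Aqp8 is a liver gene, summed to 0.318 to 0.490 CPM in knockouts and 0.0997 to 0.263 CPM in controls. None had enough counts to test, and without the filter on low counts 1 rose. Most of the higher sum lay in Ttr, the transthyretin gene, which held 34 counts in knockouts and 3 in controls. Alb, the albumin gene, held 5 counts in knockouts and 0 in controls, Apoa2 held 11 and 7, Apoa1 held 1 and 2, and Serpina1a held none. Scaled, the mean of Apoa2 was 0.084 CPM in knockouts and 0.093 in controls. The part of these markers in the Aqp8 difference was not tested.

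Aqp1 differed by less than the spread between animals. The gene (ENSMUSG00000004655.5; chromosome 6, 55336432 to 55348555, plus strand), the water channel of endothelium and red blood cells, had 186, 176, 215 and 202 CPM in knockout replicates 1 to 4. Control replicates 1 to 4 had 194, 154, 209 and 212 CPM. The groups overlapped throughout, with control replicate 2 the lowest of all 8 libraries. The log2 fold change was 0.02 (SE 0.10), and 0.04 without knockout replicate 1. It was -0.08 to 0.07 when any 1 library was left out. Scaled by library totals alone it was 1.02, close to the shift of the median gene.

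With TMM scaling the 10 endothelial markers together differed little between the groups. They summed to 492 to 522 CPM in knockouts and 518 to 548 CPM in controls. Per 100 summed counts of these markers Aqp1 held 35.6, 35.7, 42.2 and 40.3 counts in knockouts and 37.3, 29.6, 38.2 and 40.7 in controls, so the groups overlapped on this scale too. Of the 10 markers 1 rose and 3 fell with TMM scaling, where 26.1% of all genes tested rose and 23.9% fell. All 10 rose with library totals, where 78.6% of all genes tested rose. The tight junction gene Cldn5 rose with TMM scaling (0.93, SE 0.08, edgeR adjusted p = 5.64e-07). The receptor genes Kdr (-0.41, SE 0.08, adjusted p = 0.000482) and Tie1 (-0.35, SE 0.08, adjusted p = 0.00282) fell with TMM scaling and stood at 0.60 and 0.66 with library totals.

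Red blood cell RNA varied widely within both groups. The summed level of 8 red cell markers, mostly globins, was 907, 252, 329 and 172 CPM in knockout replicates 1 to 4 and 458, 182, 433 and 320 CPM in control replicates 1 to 4. Knockout replicate 1 had the most red cell RNA of all libraries, while its Aqp1 level, 186 CPM, was the second lowest of the knockouts. Of the 6 red cell genes with enough counts 0 passed edgeR's threshold, 0 had an unadjusted p under 0.05 and 0 passed in DESeq2, while 2 fell without knockout replicate 1.

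The scaled CPM of Aqp4, Aqp7 and Aqp11 in knockouts did not overlap with controls and lay below them. The same held for 21.5% of all genes tested (45.4% in either direction), and nothing is read from the members' count, since they were chosen with these values known. The groups overlapped for Aqp1 and Aqp8.

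The make-up of aquaporin RNA within a library depends on no scaling between libraries. Aqp1 made up 94.2% ± 1.77 of the summed level per length of the 5 genes in knockouts and 92.8% ± 1.57 in controls (SD, n = 4 each). Among the 4 others, Aqp7 made up 66.8% ± 14.6 in knockouts and 73.8% ± 3.02 in controls. Aqp4 took 0.352% ± 0.224 in knockouts and 15.97% ± 2.29 in controls. Aqp8 took 6.84%, 32.5%, 30.8% and 47.7% in knockout replicates 1 to 4, against 3.25% to 9.25% in controls. Aqp11 took 3.396% ± 2.38 in knockouts and 4.45% ± 0.819 in controls. Aqp4 was thus second to Aqp7 among the minor aquaporins of every control, and Aqp8 was second in knockout replicates 2 to 4.

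**Figure D2:**
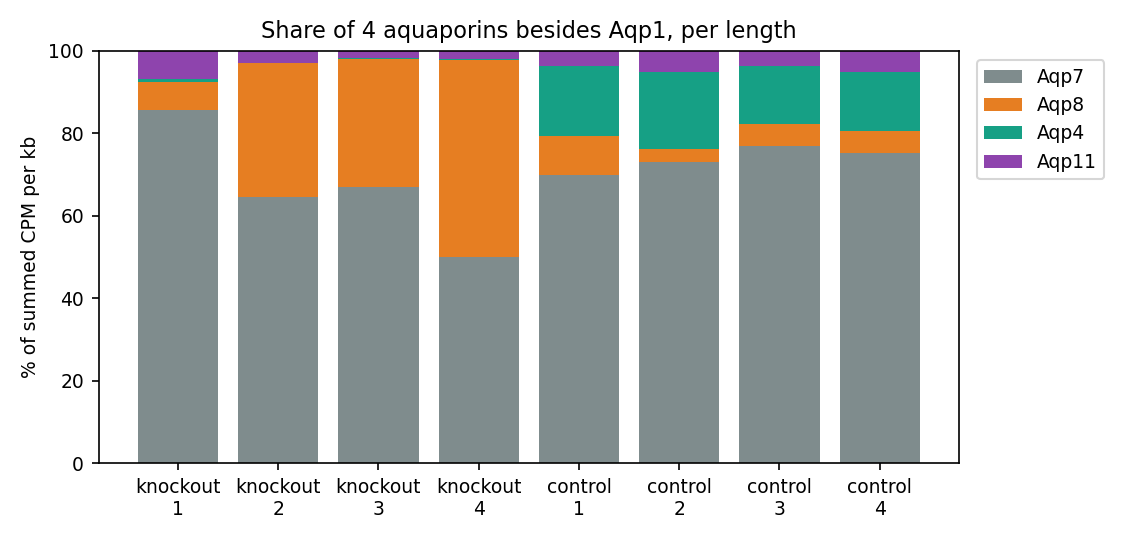
Share of each of the 4 aquaporins besides Aqp1 in their summed CPM per kb, 1 stacked bar for each library, knockouts left of controls. The Aqp4 share is at least 14.0% in every control and at most 0.651% in knockouts, and the Aqp8 share is 30.8% to 47.7% in knockout replicates 2 to 4.

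The rest of the family was nearly absent from the libraries. Mip (the lens channel), Aqp2, Aqp3, Aqp5, Aqp6, Aqp9 and Aqp12 together held 14 counts over the 4 knockout libraries and 8 over the 4 controls, with at most 4 counts in any library. None had enough counts to test. Aqp9, an aquaglyceroporin of liver and leukocytes, held 7 counts in knockouts and 1 in controls, and Mip held 5 and 1. Aqp12, a pancreas gene, held no count, which allows up to 0.0332 CPM of library totals in the knockouts and 0.0281 in the controls at a floor of 3 counts per group. Aqp3, an aquaglyceroporin that lies 44582 bases from Aqp7 on chromosome 4, held 1 count in knockouts and 0 in controls.

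AQP4 is held at the membrane by the dystrophin complex, and the genes of that complex moved in both directions. Of 14 members tested 7 rose and 5 fell in knockouts with edgeR at an adjusted p of 0.05, where 26.1% of all genes tested rose and 23.9% fell. The median log2 fold change was 0.25, against -0.01 for all genes. Sntb1, of beta-1-syntrophin, rose (1.48, SE 0.14, adjusted p = 1.42e-06). Sarcospan, Sspn (-0.82, SE 0.08, adjusted p = 1.77e-06), and alpha-sarcoglycan, Sgca (-0.65, SE 0.08, adjusted p = 1.51e-05), fell with TMM scaling but stood at 0.15 and 0.33 with library totals. With library totals 12 of the 14 rose and 0 fell, where 78.6% of all genes tested rose and 2.68% fell.

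Glycerol and triglyceride genes, the setting of AQP7, were called about as often as all genes. Of 18 tested, 6 rose, 4 fell and 8 did not pass (median 0.09), against 26.1% higher and 23.9% lower over all genes. With library totals 15 rose and 1 fell, again near the shares over all genes. Gpd1, the cytosolic glycerol-3-phosphate dehydrogenase, rose (2.20, SE 0.11, adjusted p = 1.66e-09), with 17990 counts in knockouts and 2315 in controls. Gk, the glycerol kinase that traps glycerol after entry, rose (0.80, SE 0.08, adjusted p = 3.23e-06). Lpin1, a phosphatidate phosphatase, fell (-1.84, SE 0.10, adjusted p = 8.03e-09), and -0.86 was its value with library totals. Dgat2, which makes triglyceride, fell with TMM scaling (-0.69, SE 0.07, adjusted p = 2.34e-06) and stood at 0.30 with library totals.

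Genes that set osmolytes and cell volume showed 7 rises and 3 falls among 18 tested (median 0.15), where 26.1% of all genes tested rose and 23.9% fell. With library totals they showed 17 rises and no fall, where 78.6% of all genes tested rose and 2.68% fell. The taurine transporter gene Slc6a6 (1.18, SE 0.10, adjusted p = 3.31e-07) and the potassium-chloride cotransporter gene Slc12a4 (1.02, SE 0.08, adjusted p = 2.48e-07) rose. Akr1b3, which makes the osmolyte sorbitol, fell (-1.12, SE 0.12, adjusted p = 4.53e-06), but its call was lost with library totals (-0.12). The kinase gene Wnk1 fell with TMM scaling (-0.50, SE 0.08, adjusted p = 0.000163) and stood at 0.50 with library totals.

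Hydrogen peroxide passes through AQP8 and AQP11, and genes that make or remove peroxide mostly rose. Of 19 tested 12 rose and 3 fell (median 0.47), where 26.1% of all genes tested rose and 23.9% fell. With library totals 17 rose and none fell, where 78.6% of all genes tested rose and 2.68% fell. Catalase, Cat (1.15, SE 0.07, adjusted p = 2.71e-08), and thioredoxin reductase 1, Txnrd1 (1.999, SE 0.18, adjusted p = 5.84e-07), rose. The mitochondrial superoxide dismutase Sod2 (-0.71, SE 0.08, adjusted p = 7.62e-06) and mitochondrial thioredoxin Txn2 (-0.28, SE 0.08, adjusted p = 0.00958) fell with TMM scaling and stood at 0.28 and 0.73 with library totals. Nox4, an oxidase that yields peroxide, had the highest value of the list (3.13, SE 0.32, adjusted p = 2.13e-06) and was named after its value was seen. The list itself, like the other lists, was written with earlier results of these data known.

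**Figure D3:**
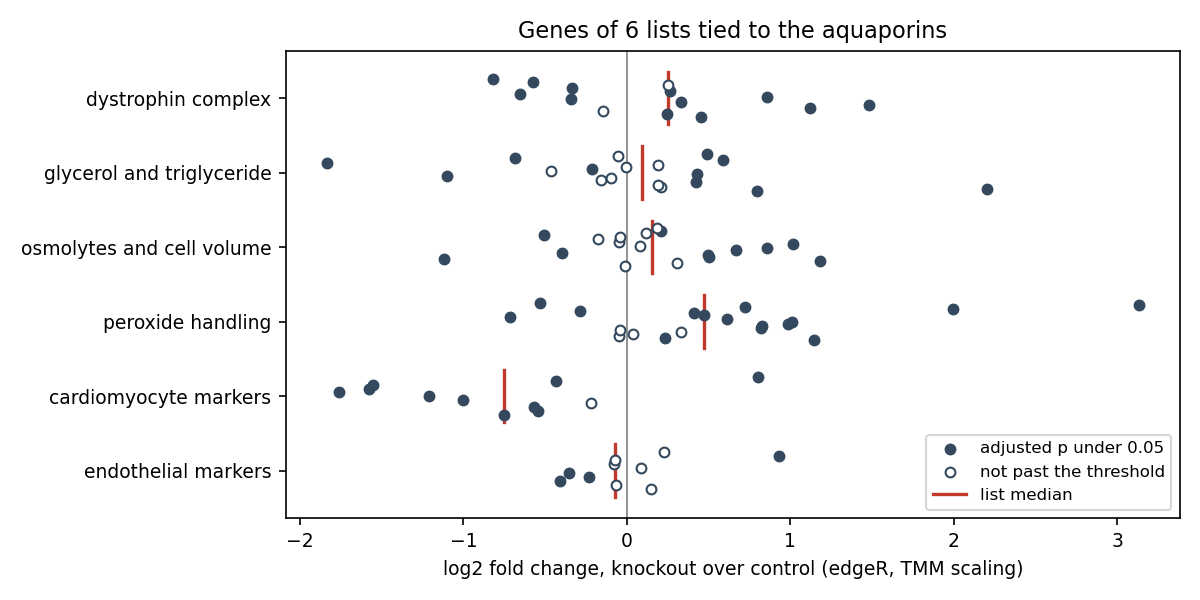
Log2 fold change, knockout over control, of each tested gene of 6 lists (edgeR, TMM scaling), with filled points for adjusted p under 0.05, open points for the others and a red line at the list median. The medians are 0.25, 0.09, 0.15 and 0.47 for the dystrophin, glycerol, volume and peroxide lists, -0.75 for cardiomyocyte markers and -0.07 for endothelial markers; the median of all genes tested is -0.01.

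The libraries carried heart muscle RNA with little of the atrium. All 11 cardiomyocyte markers were tested, and the calcium pump gene Atp2a2 (-1.55, SE 0.12, adjusted p = 1.07e-07) and the calcium release channel gene Ryr2 (-1.76, SE 0.14, adjusted p = 2.21e-07) fell, while Mybpc3, a sarcomere gene, rose (0.80, SE 0.14, adjusted p = 0.000276). With library totals 5 of the 11 rose and 4 fell, where 78.6% of all genes tested rose and 2.68% fell. Atrial markers were almost absent, at 0.410 to 0.721 CPM in knockouts and 0.262 to 0.498 CPM in controls, and Myl7, the atrial myosin light chain, held 6 counts in knockouts and 2 in controls. Over all genes tested 26.1% rose and 23.9% fell with TMM scaling, which is the background of the marker lists that follow. Of 7 smooth muscle and pericyte markers none rose and 3 fell, among them the channel subunit gene Abcc9 (-1.05, SE 0.10, adjusted p = 1.22e-06) and the smooth muscle actin gene Acta2 (-1.07, SE 0.15, adjusted p = 4.18e-05), at -0.087 and -0.11 with library totals. Their sums were 476 to 554 CPM in knockouts and 648 to 685 CPM in controls. Of 6 fibroblast markers 3 rose and none fell, among them the collagen genes Col1a2 (1.16, SE 0.23, adjusted p = 0.00097) and Col1a1 (1.17, SE 0.28, adjusted p = 0.00295). Their sums were 197 to 307 CPM in knockouts and 184 to 202 CPM in controls. Of 7 macrophage markers none rose and 3 fell, among them the complement genes C1qb (-0.56, SE 0.14, adjusted p = 0.00428) and C1qa (-0.62, SE 0.17, adjusted p = 0.00777), which stood at 0.44 and 0.40 with library totals. Their sums were 63.3 to 99.8 CPM in knockouts and 87.4 to 122 CPM in controls. With library totals 5 of the 7 smooth muscle and pericyte markers, 6 of the 6 fibroblast markers and 6 of the 7 macrophage markers rose. None of these lists then had a fall.

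The genes whose profile over the 8 libraries was most like each member were taken by the root mean square (RMS) difference of log2 CPM from the control mean, among 11892 named genes. For Aqp8 these were Egr2 (RMS 0.529), a transcription factor, Adamts19 (0.603), a secreted protease, and Nmrk2 (0.624), a muscle kinase of NAD synthesis. They were chosen for likeness to Aqp8 in these same libraries, so a shared low knockout replicate 1 largely follows from the choice. For all 3, replicate 1 was the lowest of the knockouts: Egr2 held 22 counts there and 81 to 139 in the other knockouts, against 8 to 21 in controls. Adamts19 held 10 counts in that animal and 35 to 50 in the rest of the knockouts, against 4 to 9 in controls. Nmrk2, a far more abundant gene, held 1617 counts there and 5105 to 6934 in the others, against 552 to 732 in controls.

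For Aqp4 the nearest profiles were those of Lingo3 (RMS 0.551), Ky (0.606), a muscle protein gene, and Cpn2 (0.665). Lingo3 held 5, 11, 17 and 20 counts in knockouts and 206, 227, 153 and 210 in controls. Ky held 20, 23, 14 and 17 counts in knockouts and 270, 282, 250 and 255 in controls. Their values were low in all 4 knockouts, replicate 1 included, which again largely follows from the choice by likeness. Aqp1 was nearest to Elovl5 (0.0761), Bnip2 (0.0786) and Asnsd1 (0.0831), Aqp7 to Phtf1 (0.0836), Zc3h12b (0.0991) and St3gal1 (0.109), and Aqp11 to Dhrs7 (0.101), Dguok (0.152) and Abcd2 (0.159).

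**Figure D4:**
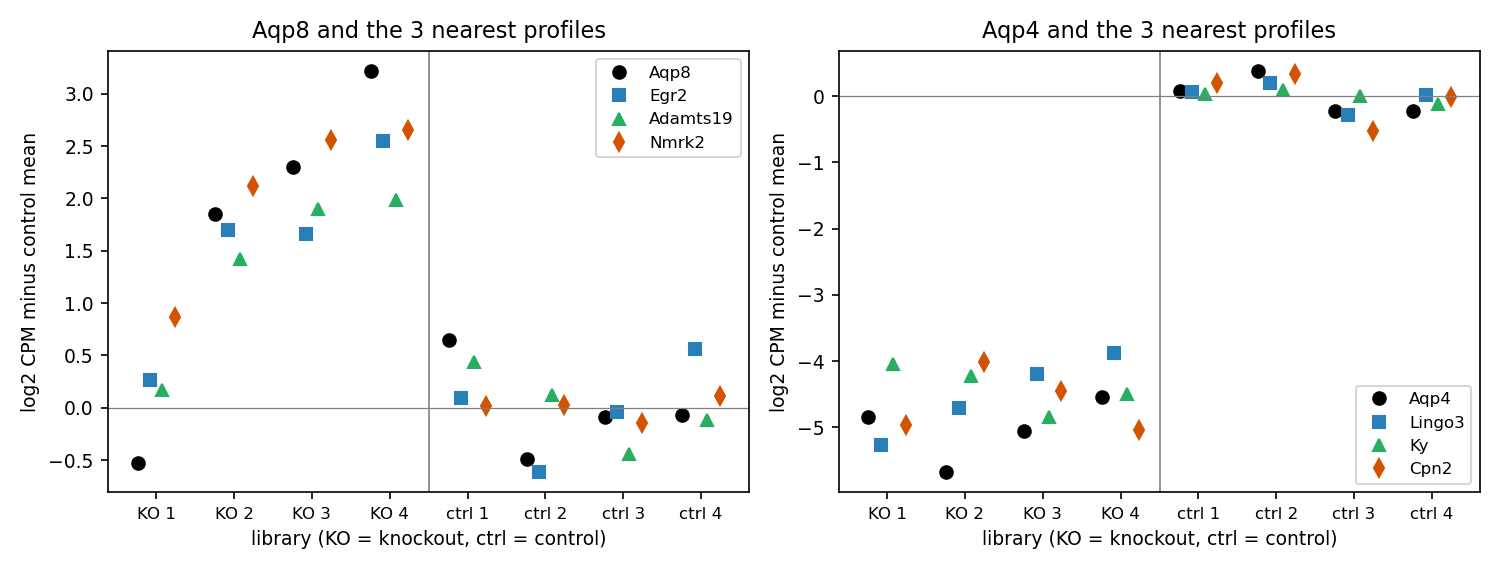
Log2 CPM minus the mean of the 4 controls for Aqp8 (left) and Aqp4 (right) and the 3 genes with the nearest profile to each; every point is 1 library, knockouts left of the grey line and controls right of it. In knockout replicate 1 Aqp8 stands at -0.53 and Aqp4 at -4.84, while in knockout replicate 4 Aqp8 stands at 3.22 and Aqp4 at -4.55.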

How the data were processed

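Total RNA of crude mitochondria from 8 hearts was extracted with miRNeasy, made into TruSeq libraries and sequenced paired-end on a MiSeq, per the labels' protocols. The deposited raw counts per gene, 1 library for each animal, were used for every test. The submitters' processing notes name featureCounts and Bowtie2 with the mm10 build, DESeq2 1.14.1 in R 3.3.2, bedtools, and SAMtools 1.3.1, without settings. The sources used here do not give the strandedness of counting. The deposited normalised signal equals the authors' counts divided by 1 size factor per library and was not used further. Of the authors' deposited table, the log2 fold changes and their standard errors are quoted, while its score (the test statistic) and p-values were not used.

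Groups came from sample titles. Genes kept by filterByExpr (minimum count 10; 17891 genes) were fitted with edgeR 4.0.16 (limma 3.58.1, R 4.3.3) by the two-sided quasi-likelihood F test with TMM factors, knockout over control, and Benjamini-Hochberg adjustment over all genes with a threshold of 0.05. The biological coefficient of variation was 11.3%. The SE is the absolute log2 fold change divided by the square root of F. The test was checked on simulated data. Figures used matplotlib 3.10.9. Lengths and positions are those of GENCODE M21 on GRCm38. Alternatives were RLE size factors, DESeq2 1.42.0, library totals, nuclear genes alone, no filter, other transcript lengths, another prior count, a replicate block and each library left out; the longest coding transcript was added after the data were seen.

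The members and gene lists were chosen with earlier results of these data known. Named genes are the members, the rest of the family and up to 2 called genes of smallest p in each direction of each list. The 3 named genes of nearest profile, among those with a mean count of at least 20, were taken too. Other marker genes named above, such as Ttr, Alb, Tnni2, Actn3, Adipoq and Plin4, fall outside this rule, as do Nox4 and the chromosomal neighbours. Animals of the same replicate number did not deviate together. No replicates were duplicates: the chi-square per degree of freedom was 2.56 to 4.00 between controls and 8.55 to 140 between knockouts. Intervals and floors cover counting error only. A result of 1 further gene that the naming rule takes is not reported here.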

Additional observations from a re-analysis of the deposited data

Results flagged for a closer look

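Of 32 groups of 4 libraries examined, 2 held a library far from the other 3 by Dixon's 95% criterion, which by chance sets apart about 1 in 20 groups. The summed level of the endothelial markers was 548 CPM in control replicate 3, against 518 to 520 CPM in the other controls. The summed level of the atrial markers was 0.498 CPM in control replicate 4, against 0.262 to 0.277 CPM in the other controls. Neither library stood apart in any of the 5 aquaporins by the same criterion.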

How the results depend on the processing

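Scaled by library totals alone, the median of all genes was 0.97 and the log2 fold changes were 1.02 for Aqp1, -4.84 for Aqp4, 0.56 for Aqp7, 3.38 for Aqp8 and 0.038 for Aqp11. The dystrophin list then had 12 genes higher and 0 lower, the glycerol list 15 and 1, the volume list 17 and 0, and the peroxide list 0 lower. The sign turned for Sspn (0.15), Sgca (0.33), Dgat2 (0.30), Wnk1 (0.50), Sod2 (0.28), Txn2 (0.73), Kdr (0.60), Tie1 (0.66), C1qb (0.44) and C1qa (0.40). The scaling by itself moves the median gene. Over the longest annotated transcript or the longest coding one, Aqp4 had 1.10 CPM per kb in controls and Aqp7 had 4.56. Aqp11 had 0.217 CPM per kb (longest annotated) and 0.336 (longest coding) in knockouts, against 0.401 and 0.623 in controls. Its share of the 5 aquaporins was 0.278% and 0.430% in knockouts, against 0.519% and 0.803% in controls. Leaving out 1 library gave log2 fold changes of -0.08 to 0.07 for Aqp1, -6.14 to -5.48 for Aqp4, -0.57 to -0.36 for Aqp7, 1.73 to 2.66 for Aqp8 and -1.14 to -0.78 for Aqp11. With the replicate number as a block these were 0.03, -5.79, -0.48, 2.14 and -0.91, and 4580 genes were called higher and 4253 lower, against 4669 and 4274 without it. Same-numbered libraries had deviations correlated at -0.0137 to 0.0885 over 15545 genes, all under 0.1, so the numbers were taken as names only. Depth limits Aqp4 in knockouts and Aqp8 in controls, which rest on 12 and 38 counts in all.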

Other observations

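The coding genes next to the aquaporins on the chromosome were looked up after the members' values were seen. Next to Aqp4, Kctd1 lies 238049 bases away and had a log2 fold change of -0.01 (SE 0.11, edgeR adjusted p = 0.927), and Chst9, 40941 bases away on the other side, held no count. Next to Aqp8, Lcmt1 lies 31932 bases away (0.15, SE 0.17, adjusted p = 0.497), and Zkscan2, 7379 bases away, held 30 counts in knockouts and 28 in controls, too few to test. Next to Aqp11, Clns1a, a gene of a chaperone once studied as a volume-regulated channel, lies 3209 bases away (0.11, SE 0.09, adjusted p = 0.326). Pak1, 50251 bases away on the other side, stood at -0.49 (SE 0.42, adjusted p = 0.353), with 49 counts in knockouts and 41 in controls. Beside Aqp1, Mindy4 lies 16209 bases away (0.07, SE 0.20, adjusted p = 0.811). Ghrhr, 27739 bases from Aqp1 on the other side, held 0 counts in knockouts and 1 in controls. Next to Aqp7, Nfx1, a transcription factor gene, lies 7080 bases away and rose (0.37, SE 0.09, adjusted p = 0.00308).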
